A study of Mus musculus with 6 samples.

Results

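The genes described here mostly make, break down or read cyclic AMP (cAMP). They were measured in MIN6 cells, a mouse insulin-secreting line widely used in place of beta cells. These genes were chosen by symbol among the protein-coding genes of the count table. The choice took the adenylyl cyclases (Adcy), the cyclic nucleotide phosphodiesterases (Pde), the catalytic and regulatory subunits of protein kinase A (Prkac, Prkar), the A-kinase anchoring proteins that carry the name Akap, and the cAMP-activated exchange factors Epac1 and Epac2 (Rapgef3 and Rapgef4). It gave 57 of 55487 genes, namely 10 cyclases, 24 phosphodiesterases, 2 catalytic subunits, 4 regulatory subunits, 15 anchoring proteins and 2 exchange factors. Of the 24 phosphodiesterases, 5 are specific for cyclic GMP (cGMP) and 3 are small subunits of the PDE6 family, so not all of them break down cAMP. Of the 57 genes, 55 were among the 21141 genes with enough counts to be tested. Akap4 and Akap14 were not, with at most 0.0219 and 0.183 CPM in any library (CPM, counts scaled to the library total with TMM factors). The cells had received, by lipid transfection at confluency in 6-well plates, full-length PTHrP (parathyroid hormone-related protein) or, as control, the DsRed vector, and RNA taken at most 3 days later was sequenced in 3 libraries of each group. Expression was transient, so RNA came from all cells of a well whether or not they carried the plasmid, and the share that did is not given in the sources used here. Fewer cells expressing a gene and less of its RNA per cell therefore cannot be told apart. The series title puts the question as the effect of PTHrP on beta cells and their endoplasmic reticulum stress.

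In beta cells, receptors coupled to the G protein Gs switch on adenylyl cyclases, which turn ATP into cAMP. Protein kinase A is held inactive by its regulatory subunits, which release the catalytic subunits when they bind cAMP, and anchoring proteins place the enzyme near its targets. Epac2 is the other main cAMP sensor of the beta cell and acts on insulin granule release, while phosphodiesterases end the signal. The PTHrP receptor PTH1R is itself coupled to Gs in many cell types.

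The libraries held 84427033 to 94613684 gene counts in the PTHrP group and 86686554 to 91010177 in the DsRed group. Pthlh, which encodes PTHrP, had 697, 553 and 797 counts in the PTHrP libraries, against 0, 4 and 8 in the DsRed libraries. All 12 beta cell markers examined were above 1 TPM (transcript level per length, scaled to a fixed total), and summed to 127119 to 132919 TPM in PTHrP libraries and 131560 to 156318 TPM in DsRed libraries. Alpha cell markers summed to 709 to 989 TPM in PTHrP libraries and 874 to 939 TPM in DsRed libraries, and no list for another pancreatic, stromal or blood cell type passed 3.76 TPM. PTHrP replicate 2 stood apart from all other libraries by a chi-square of its counts per gene, 55.5 to 68.6 against each of them, and 9.08 to 36.8 among the other pairs. In a principal component analysis of log2 CPM, PTHrP replicate 1 lay furthest out on the first component (29.4% of variance), at -74.8, against -8.74 to 36.9 in the others. PTHrP replicate 2 lay furthest out on the second (22.6%), at -62.3, against -20.5 to 32.8. The fold change without PTHrP replicate 2 is given as well for many of the members named below, and not for those given by range.

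Promoter windows from RefSeq, on GRCm38.p6, run from 250 bases before to 50 bases after a transcript start, and 47 of the 57 genes had 89 such windows in the table used. They were searched for the cAMP response element TGACGTCA, which reads the same on both strands, and for its short form TGACG or CGTCA on either strand. The full element contains both short forms. Prkar1a, the most abundant gene of the 57 per length, had the full element, in 2 of its overlapping windows, and no other gene of the 47 did. That is 2.25% of the 89 windows, against 1.79% of all 32851 windows in the table. The short form was in 19 of the 89 windows (21.3%), against 20.8% of all windows. Adcy1 is the gene with the largest difference at appreciable level, and Prkaca encodes the main catalytic subunit. A single window of each of Adcy1, Prkar1a and Prkaca is printed, because the results below turn on these genes. Capitals mark the searched motifs, and all are read on the plus strand, which is the strand of each gene.
Adcy1 (chr11:7063183-7063482): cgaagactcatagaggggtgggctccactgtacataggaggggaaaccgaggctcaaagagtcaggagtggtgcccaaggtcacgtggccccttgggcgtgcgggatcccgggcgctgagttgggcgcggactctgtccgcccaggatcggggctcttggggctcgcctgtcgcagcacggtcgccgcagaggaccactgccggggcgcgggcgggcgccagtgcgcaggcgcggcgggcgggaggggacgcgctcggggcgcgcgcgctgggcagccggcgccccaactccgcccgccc
Prkar1a (chr11:109650699-109650998): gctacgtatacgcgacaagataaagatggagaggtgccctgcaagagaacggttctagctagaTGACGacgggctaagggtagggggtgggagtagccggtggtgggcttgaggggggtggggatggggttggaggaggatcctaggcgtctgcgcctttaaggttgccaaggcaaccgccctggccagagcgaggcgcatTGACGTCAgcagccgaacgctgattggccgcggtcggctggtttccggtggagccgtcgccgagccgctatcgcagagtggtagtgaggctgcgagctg
Prkaca (chr8:83972728-83973027): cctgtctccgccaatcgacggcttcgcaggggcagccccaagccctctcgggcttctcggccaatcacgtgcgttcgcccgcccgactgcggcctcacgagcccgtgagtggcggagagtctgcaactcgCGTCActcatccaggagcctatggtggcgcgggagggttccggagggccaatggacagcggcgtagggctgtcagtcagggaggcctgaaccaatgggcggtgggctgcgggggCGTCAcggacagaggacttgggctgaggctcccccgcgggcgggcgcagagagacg
In the printed Prkar1a window the full element began 49 bases before the transcript start and a separate short form 187 bases before it. Position depends on the annotated start: in the overlapping Prkar1a window the same element began 38 bases after the start. A further Prkar1a window, not printed, had a short form 151 bases before its start. In Prkaca the short forms began 120 and 6 bases before the start. The Adcy1 window held neither form.

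The comparison of PTHrP with DsRed asked which of these genes differ in RNA level between cells given PTHrP and cells given the vector. Adcy1 was the member that came nearest to a call, with a fitted level 2.29-fold that of DsRed cells (95% interval 1.44 to 3.66). The abundant members differed little: the 22 whose log2 CPM averaged 5 or more all had log2 fold changes between -0.17 and 0.15. With edgeR's quasi-likelihood test and Benjamini-Hochberg adjustment over all genes, 0 of the 55 members passed an adjusted p of 0.05. The background was as sparse, since 9 of 21141 genes (0.0426%) passed. At an unadjusted p under 0.05, 9 members (16.4%) were counted, against 8.90% of all genes. The 4 with positive fold changes were Adcy1, Adcy8, Pde3a and Prkar2b (7.27% of members, against 4.92% of genes). The 5 with negative ones were Adcy4, Adcy10, Pde6a, Akap8 and Rapgef4 (9.09% of members, against 3.98% of genes). DESeq2 called 1 of the 44 members for which it gave an adjusted p, Adcy1, against 0.907% of the genes it adjusted. By limma-voom 0 of 55 were called, against 9 of all 21141 genes. At an unadjusted p under 0.05 limma-voom counted 11 (20%), against 9.30% of all genes.

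Most of the small differences were negative, by an amount that moved with the libraries used. The log2 fold change was negative in 38 of 55 members (69.1%), against 51.3% of all genes, and its median was -0.10 over members and -0.01 over all genes. Without PTHrP replicate 2 it was negative in 32 of 55 (58.2%), against 52.6% of genes, and the median was -0.04. Without DsRed replicate 1 it was negative in 34 of 55 (61.8%), against 52.4% of genes, with a median of -0.05. With PTHrP replicate 2 left out, 13 members (23.6%) had an unadjusted p under 0.05, against 13.0% of genes. The groups did not overlap for 10 members (18.2%), against 16.3% of all genes. In 2 of them, Adcy1 and Prkar2b, every PTHrP library lay above every DsRed library (3.64% of members, against 8.45% of genes). In the other 8, Adcy4, Adcy10, Pde6a, Pde8a, Prkaca, Prkar1a, Akap8 and Rapgef4, every PTHrP library lay below (14.5% of members, against 7.88% of genes).

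**Figure D1:**
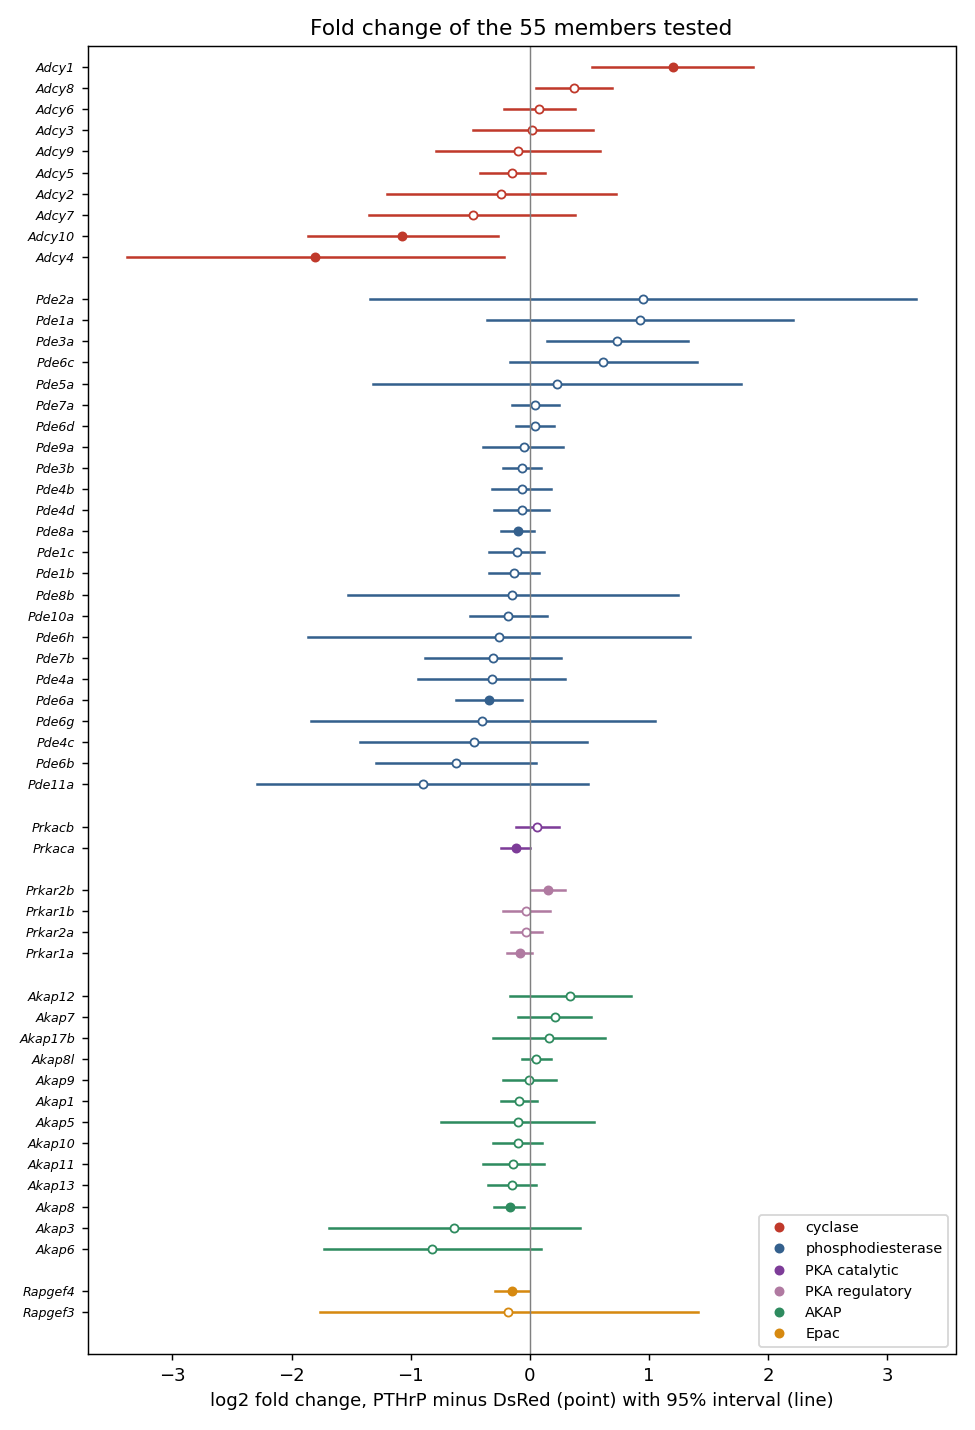
Log2 fold change of each tested member, PTHrP minus DsRed, from edgeR, with its 95% interval, grouped by class. Filled points are members whose groups do not overlap; Adcy1 at 1.20 stands furthest to the right of the filled points, and the abundant members lie within -0.17 to 0.15.

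Among the cyclases, Adcy1 and Adcy8, both membrane enzymes stimulated by Ca2+ and calmodulin, had the largest positive fold changes, and neither passed the edgeR threshold. Adcy1, an isoform best known from neurons (ENSMUSG00000020431, chr11:7063489-7178506, plus strand), had 4070, 3664 and 2169 counts in PTHrP libraries, against 1577, 1358 and 1425 in DsRed libraries. As CPM these were 47.3, 43.1 and 22.8 in PTHrP libraries and 18.2, 15.5 and 15.6 in DsRed libraries. The groups did not overlap, but PTHrP replicate 3 lay much closer to the DsRed libraries than its partners did. The log2 fold change of Adcy1 was 1.20 (SE 0.28, 95% interval 0.52 to 1.87, n = 3 each), with an unadjusted p of 0.00479 and an adjusted p of 0.363 by edgeR.

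The call for Adcy1 changed with the method and with that library. Its adjusted p was 0.0333 by DESeq2 at the same fold change of 1.20, and 0.234 by limma-voom at 1.12. Without PTHrP replicate 3 the log2 fold change was 1.46 and the edgeR adjusted p 0.000548, in a fit that called 14 of 22718 genes (0.0616%). Across the 6 fits that each left out 1 library, the log2 fold change stayed between 1.00 and 1.46 and the edgeR adjusted p between 0.000548 and 0.949. Without PTHrP replicate 2 it was 1.09, with an unadjusted p of 0.0526.

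**Figure D2:**
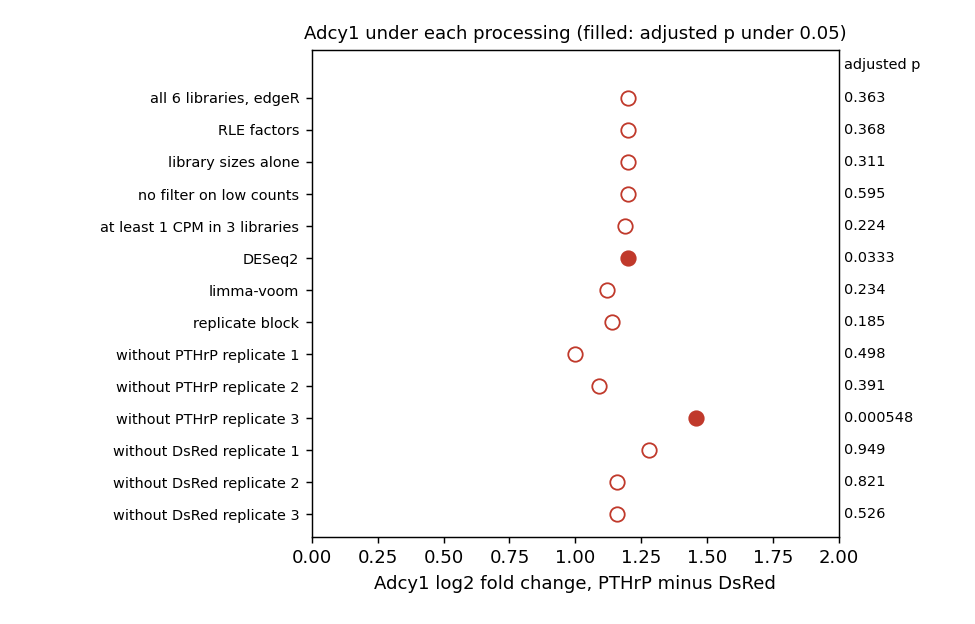
Log2 fold change of Adcy1, PTHrP minus DsRed, under each processing, with its adjusted p at the right. Filled points passed an adjusted p of 0.05: DESeq2 on all libraries and edgeR without PTHrP replicate 3. All values lie between 1.00 and 1.46.

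Adcy8, the other strongly Ca2+-stimulated cyclase and one known in beta cells for its role in glucose responses, had 11.5, 10.9 and 9.15 CPM in PTHrP libraries, against 9.85, 7.03 and 7.46 CPM in DsRed libraries. The groups overlapped, through PTHrP replicate 3 and DsRed replicate 1. Its log2 fold change was 0.37 (SE 0.15, 95% interval 0.05 to 0.69), with an edgeR unadjusted p of 0.0272 and adjusted p of 0.487. Adcy3, which Ca2+ and calmodulin can also stimulate, had 1.72, 2.61 and 2.15 CPM in PTHrP libraries and 2.60, 1.66 and 2.12 CPM in DsRed libraries, with a log2 fold change of 0.02 (SE 0.23) that was -0.13 (SE 0.25) with PTHrP replicate 2 left out. Adcy3 shares 1380 exon bases with Cenpo on the opposite strand, and Cenpo averaged 1501.5 counts against 189.8 for Adcy3, so its reads are uncertain.

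Adcy9, a widely expressed cyclase that forskolin barely activates, was the most abundant cyclase per length, at 32.6 ± 12.6 TPM in PTHrP libraries and 35.4 ± 1.96 TPM in DsRed libraries (SD, n = 3 each). It had 67.7, 33.2 and 63.2 CPM in PTHrP libraries and 55.3, 61.9 and 58.5 CPM in DsRed libraries. PTHrP replicate 2 was alone at the low end, and the other PTHrP libraries lay above all DsRed libraries. The log2 fold change was -0.10 (SE 0.27, edgeR adjusted p 0.946) with all libraries and 0.16 (SE 0.07, unadjusted p 0.0234, adjusted p 0.280) without PTHrP replicate 2. Adcy6 and Adcy5, the isoforms that Ca2+ inhibits, had log2 fold changes of 0.08 (SE 0.14) and -0.15 (SE 0.13). Adcy6 had 18.5, 13.8 and 21.0 CPM in PTHrP libraries and 16.5, 17.9 and 16.0 CPM in DsRed libraries. Adcy5 had 8.47, 7.21 and 9.19 CPM in PTHrP libraries and 8.31, 9.49 and 9.75 CPM in DsRed libraries. In both the groups overlapped. The log2 fold change of Adcy6 without PTHrP replicate 2 was 0.24 (SE 0.09, edgeR unadjusted p 0.0200, adjusted p 0.263), with both remaining PTHrP libraries above all DsRed libraries. That of Adcy5 was then -0.05 (SE 0.12).

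The remaining cyclases were near the lower limit of measurement. Adcy10, the soluble cyclase that responds to bicarbonate, had 0.383, 0.717 and 0.336 CPM in PTHrP libraries, against 1.25, 0.822 and 0.940 CPM in DsRed libraries. Adcy4, a membrane cyclase of the group stimulated by G protein beta-gamma subunits, had 0.0465, 0.0823 and 0.0630 CPM in PTHrP libraries, against 0.220, 0.285 and 0.175 CPM in DsRed libraries. In both genes all PTHrP libraries lay below all DsRed libraries. The log2 fold changes were -1.07 (SE 0.36) for Adcy10 and -1.80 (SE 0.72) for Adcy4, with edgeR adjusted p of 0.406 and 0.493. Leaving out PTHrP replicate 2 gave -1.48 (SE 0.38, edgeR adjusted p 0.0810) for Adcy10 and -2.02 (SE 0.93) for Adcy4. Adcy2 and Adcy7 lay between 0.337 and 1.64 CPM, with log2 fold changes of -0.24 and -0.48 and edgeR adjusted p of at least 0.770.

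The make-up of the cyclase pool was compared as shares of its summed TPM, as a description without a test. Adcy1 made up 16.6%, 23.0% and 9.02% of cyclase TPM in PTHrP libraries, against 8.21%, 6.63% and 6.87% in DsRed libraries. The 3 Ca2+/calmodulin-stimulated isoforms together made up 24.0%, 34.6% and 16.3% in PTHrP libraries and 17.4%, 12.7% and 13.8% in DsRed libraries, so these shares overlapped. Adcy9 made up 57.3%, 42.7% and 60.3% in PTHrP libraries and 60.0%, 63.8% and 62.2% in DsRed libraries. The pool as a whole was 59.4 ± 15.2 TPM in PTHrP libraries and 57.0 ± 1.69 TPM in DsRed libraries (SD, n = 3 each), a log2 ratio of 0.06, which moved to -0.11 when PTHrP replicate 1 was left out and to 0.25 when PTHrP replicate 2 was.

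**Figure D3:**
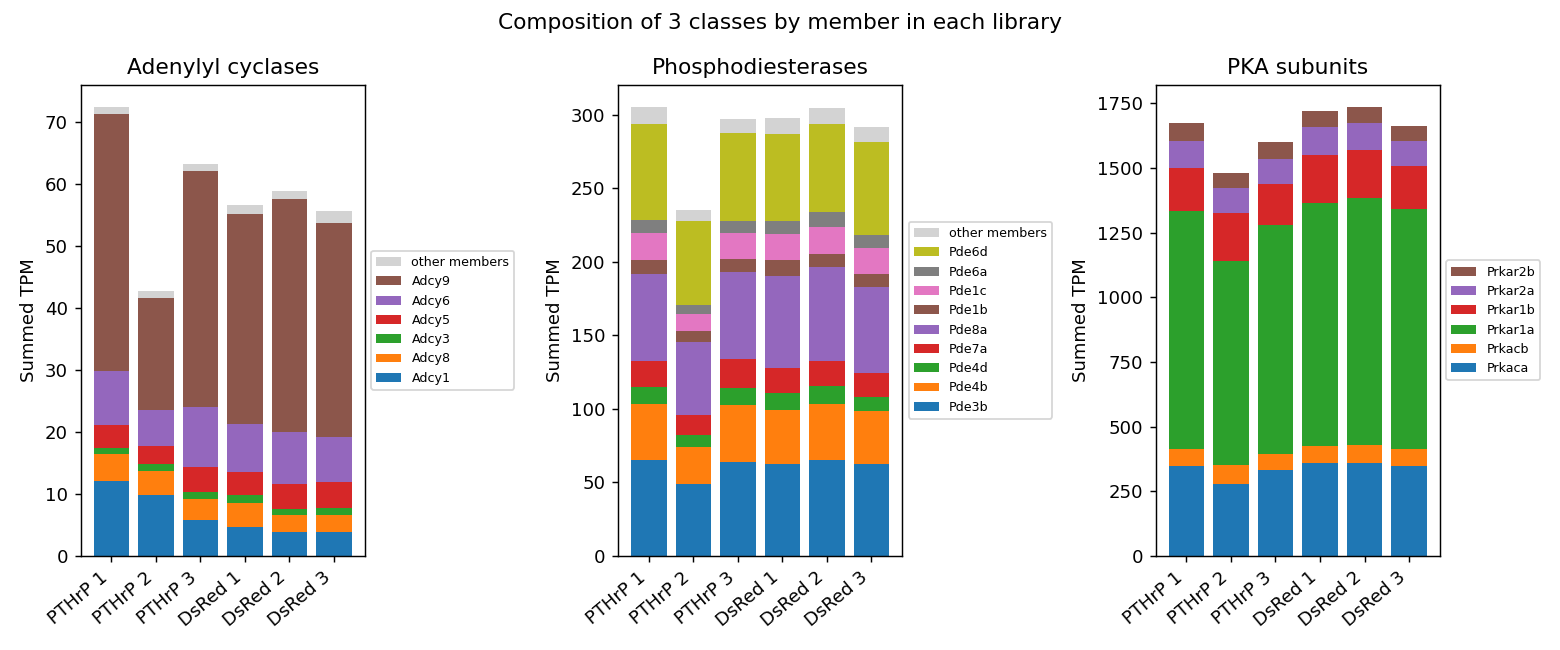
Summed TPM of the adenylyl cyclases, phosphodiesterases and PKA subunits in each library, stacked by member, PTHrP libraries on the left. Adcy9 is the largest part of every cyclase bar and Prkar1a of every PKA bar; PTHrP replicate 2 has the shortest bar in all 3 panels, with 42.7 TPM of cyclases and 235 TPM of phosphodiesterases.

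The phosphodiesterase pool was led by the same few genes in both groups. Pde3b, Pde6d, Pde8a and Pde4b had the highest mean TPM. Pde3b, the insulin-regulated enzyme that cGMP inhibits, was at 59.1 ± 9.10 TPM in PTHrP libraries and 63.4 ± 1.55 TPM in DsRed libraries. Pde6d, named for a photoreceptor enzyme but known as a carrier of prenylated proteins, was at 60.9 ± 4.55 TPM in PTHrP libraries and 60.8 ± 2.33 TPM in DsRed libraries. Pde8a, a cAMP-specific enzyme of high affinity, was at 56.1 ± 5.63 TPM in PTHrP libraries and 61.8 ± 2.68 TPM in DsRed libraries. Pde4b, also cAMP-specific and the target of rolipram-type inhibitors, was at 34.3 ± 7.75 TPM in PTHrP libraries and 36.8 ± 0.834 TPM in DsRed libraries (SD, n = 3 each throughout). Pde3b made up 21.3%, 20.7% and 21.4% of the pool in PTHrP libraries, against 21.0%, 21.4% and 21.4% in DsRed libraries. Pde6d made up 21.6%, 24.2% and 20.2% in PTHrP libraries, against 19.9%, 19.6% and 21.8% in DsRed libraries. The pool and its shares are therefore not of enzymes alone. All genes of the class, Pde6d included, summed to 279 ± 38.2 TPM in PTHrP libraries and 298 ± 6.34 TPM in DsRed libraries. The log2 ratio was -0.09 with all libraries and 0.01 without PTHrP replicate 2.

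Of the abundant phosphodiesterases, Pde8a was the one whose groups did not overlap. It had 75.2, 70.4 and 76.6 CPM in PTHrP libraries, against 79.9, 81.6 and 77.3 CPM in DsRed libraries, with PTHrP replicate 3 just under DsRed replicate 3. The log2 fold change was -0.10 (SE 0.06, edgeR adjusted p 0.676). Pde3b had 186, 156 and 185 CPM in PTHrP libraries and 179, 188 and 185 CPM in DsRed libraries. Pde4b had 127, 93.8 and 132 CPM in PTHrP libraries and 121, 126 and 124 CPM in DsRed libraries. In both, PTHrP replicate 2 alone lay under the range of the others. Pde1c, the Ca2+/calmodulin-stimulated enzyme studied in beta cells, followed the same order, with 118, 85.5 and 113 CPM in PTHrP libraries and 114 CPM in each DsRed library. The log2 fold changes of Pde3b, Pde4b and Pde1c were -0.07, -0.07 and -0.11 with all libraries, and 0.01, 0.07 and 0.02 without PTHrP replicate 2.

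Pde4d, a further cAMP-specific enzyme, had 42.8, 34.7 and 44.7 CPM in PTHrP libraries and 43.4, 47.0 and 38.2 CPM in DsRed libraries, a log2 fold change of -0.07 (SE 0.11). Pde10a, which splits both cyclic nucleotides, had 16.6, 10.5 and 14.7 CPM in PTHrP libraries and 15.1, 16.1 and 16.1 CPM in DsRed libraries, a log2 fold change of -0.18 (SE 0.15). In both genes the groups overlapped. Leaving out PTHrP replicate 2 gave log2 fold changes of 0.03 for Pde4d and -0.01 for Pde10a. Pde6d had 45.0, 43.5 and 41.6 CPM in PTHrP libraries and 40.5, 41.2 and 45.0 CPM in DsRed libraries, with a log2 fold change of 0.04 (SE 0.07). The edgeR adjusted p of these 3 genes was 0.767 to 0.919.

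Among the less abundant phosphodiesterases, Pde6a and Pde3a had an unadjusted p under 0.05. Pde6a, a catalytic subunit of the cGMP-specific photoreceptor enzyme, had 12.5, 9.52 and 11.8 CPM in PTHrP libraries, against 13.2, 16.1 and 13.6 CPM in DsRed libraries. All its PTHrP libraries lay below all DsRed libraries, and the log2 fold change was -0.34 (SE 0.13, edgeR unadjusted p 0.0190, adjusted p 0.447). Pde3a, the close relative of Pde3b known from heart and platelets, had 1.41, 2.56 and 2.20 CPM in PTHrP libraries, against 0.995, 1.18 and 1.53 CPM in DsRed libraries. PTHrP replicate 1 lay within the DsRed range, and the log2 fold change was 0.73 (SE 0.27, edgeR unadjusted p 0.0195, adjusted p 0.455). Pde6b, the partner subunit of Pde6a, had 0.616, 0.765 and 0.494 CPM in PTHrP libraries and 0.764, 1.02 and 1.10 CPM in DsRed libraries, with a log2 fold change of -0.62, an SE of 0.30 and an edgeR adjusted p of 0.591. Without PTHrP replicate 2 the log2 fold changes of Pde6a, Pde3a and Pde6b were -0.23, 0.55 and -0.79, with edgeR unadjusted p of 0.0491, 0.0705 and 0.0378. Pde7b and Pde8b, both cAMP-specific, had log2 fold changes of -0.31 (SE 0.26) and -0.15 (SE 0.63). The 12 phosphodiesterases not named so far lay between 0.0109 and 47.3 CPM, with log2 fold changes from -0.90 to 0.95, unadjusted p of 0.115 to 0.754, and overlapping groups in every case.

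**Figure D4:**
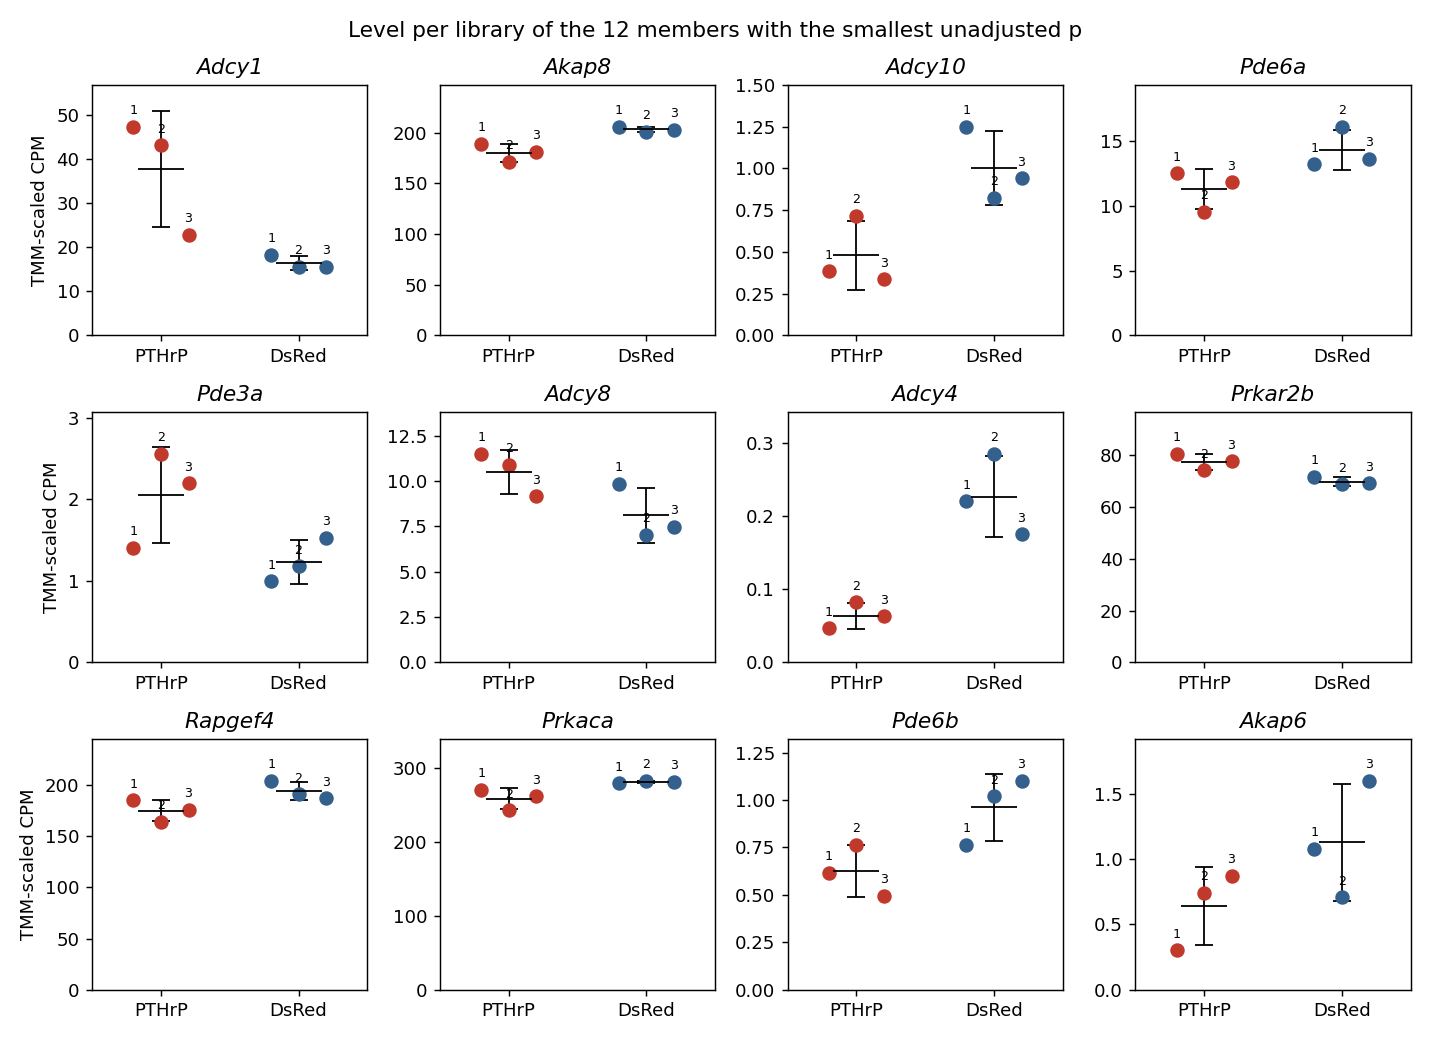
TMM-scaled CPM of the 12 members with the smallest unadjusted p, on axes that start at 0, PTHrP left of DsRed in each panel. Points are libraries with their replicate number, and lines are the mean and SD of 3 libraries. Adcy1 spans 22.8 to 47.3 CPM among PTHrP libraries, while Akap8, Prkar2b, Rapgef4 and Prkaca differ by small amounts at high levels.

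The protein kinase A subunits differed little in proportion between the groups. Prkar1a, which encodes the type I regulatory subunit RIalpha, was the most abundant, at 866 ± 68.6 TPM in PTHrP libraries and 941 ± 14.7 TPM in DsRed libraries (SD, n = 3 each). Type I subunits made up 86.2%, 86.2% and 86.6% of regulatory subunit TPM in PTHrP libraries, against 86.9%, 87.3% and 87.5% in DsRed libraries. These shares did not overlap, at a difference of under 2 percentage points. Prkaca made up 83.8%, 79.5% and 84.1% of catalytic subunit TPM in PTHrP libraries, against 84.7%, 84.1% and 84.0% in DsRed libraries. Summed regulatory over summed catalytic TPM was 3.04, 3.23 and 3.08 in PTHrP libraries and 3.06, 3.07 and 3.02 in DsRed libraries, with overlapping ranges.

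Prkar2b, the type II regulatory subunit RIIbeta, was the subunit with the smallest unadjusted p. It had 80.4, 74.1 and 77.5 CPM in PTHrP libraries, against 71.5, 68.6 and 69.1 CPM in DsRed libraries. Every PTHrP library lay above every DsRed library. The log2 fold change was 0.15 (SE 0.06, 95% interval 0.01 to 0.29), with an edgeR unadjusted p of 0.0340 and an adjusted p of 0.513. Its share of regulatory subunit TPM was 5.56%, 5.11% and 5.51% in PTHrP libraries, against 4.81%, 4.53% and 4.65% in DsRed libraries. Prkaca had 271, 243 and 262 CPM in PTHrP libraries, against 280, 283 and 282 CPM in DsRed libraries. Prkar1a had 1250, 1197 and 1222 CPM in PTHrP libraries, against 1276, 1308 and 1303 CPM in DsRed libraries. In both, all PTHrP libraries lay below all DsRed libraries. The log2 fold changes were -0.12 (SE 0.06, unadjusted p 0.0525, adjusted p 0.565 by edgeR) for Prkaca and -0.08 (SE 0.05, adjusted p 0.648) for Prkar1a. Prkacb, Prkar1b and Prkar2a had overlapping groups, log2 fold changes of 0.06, -0.03 and -0.03, and edgeR adjusted p of 0.879 to 0.950. Prkacb was highest in PTHrP replicate 2, at 221 CPM, against 175 to 190 CPM in the other libraries, and so was Prkar1b at 249 CPM, against 194 to 225 CPM. The other PTHrP libraries had 197 and 194 CPM of Prkar1b, below the 221, 225 and 207 CPM of the DsRed libraries. Without PTHrP replicate 2 the log2 fold change of Prkar1b was -0.15 (SE 0.05, edgeR unadjusted p 0.0103, adjusted p 0.202), that of Prkacb -0.04 and that of Prkar2a -0.07. Those of Prkar2b, Prkaca and Prkar1a were then 0.18, -0.08 and -0.07.

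Rapgef4, which encodes Epac2, accounted for 99.9% of exchange factor TPM in every library. It had 185, 164 and 176 CPM in PTHrP libraries, against 204, 191 and 187 CPM in DsRed libraries. All PTHrP libraries lay below all DsRed libraries, with a log2 fold change of -0.15 (SE 0.06, 95% interval -0.29 to -0.01). The edgeR unadjusted p was 0.0366 and the adjusted p 0.520. When PTHrP replicate 2 was left out, the log2 fold change was -0.10, with an unadjusted p of 0.0741. Rapgef3, which encodes Epac1, had at most 0.232 CPM in any library and a log2 fold change of -0.18 (SE 0.72).

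Among the anchoring proteins, Akap8, a nuclear matrix protein also known as AKAP95, had the smallest unadjusted p. It had 189, 171 and 181 CPM in PTHrP libraries, against 206, 201 and 203 CPM in DsRed libraries. No libraries overlapped, and the log2 fold change was -0.17 (SE 0.06, 95% interval -0.30 to -0.05), with an edgeR unadjusted p of 0.0111 and an adjusted p of 0.399. It was -0.13 without PTHrP replicate 2, with an unadjusted p of 0.0162. Its share of anchoring protein TPM was 24.7%, 24.6% and 24.6% in PTHrP libraries, against 26.4%, 26.5% and 26.4% in DsRed libraries. Its neighbour and relative Akap8l had 129, 130 and 119 CPM in PTHrP libraries and 121, 121 and 122 CPM in DsRed libraries, a log2 fold change of 0.05 (SE 0.06) with overlapping groups. The 2 were the most abundant anchoring proteins per length, Akap8l at 75.7 ± 4.34 TPM in PTHrP libraries and 75.0 ± 1.21 TPM in DsRed libraries, and Akap8 at 63.8 ± 6.93 TPM in PTHrP libraries and 73.7 ± 1.88 TPM in DsRed libraries.

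Akap1, which anchors the kinase at mitochondria, had 57.9, 53.3 and 56.5 CPM in PTHrP libraries and 63.5, 58.5 and 56.5 CPM in DsRed libraries, a log2 fold change of -0.09 (SE 0.07). Akap11, a scaffold that also binds the kinase GSK3, had 128, 91.8 and 123 CPM in PTHrP libraries and 125, 119 and 133 CPM in DsRed libraries. Akap13, a further large scaffold, had 126, 97.0 and 123 CPM in PTHrP libraries and 125, 126 and 132 CPM in DsRed libraries. PTHrP replicate 2 was the lowest library for both genes, and for Akap9, a scaffold of the centrosome and Golgi. Akap9 had 33.3, 27.9 and 36.0 CPM in PTHrP libraries and 31.1, 30.7 and 35.9 CPM in DsRed libraries. The log2 fold changes of these 3 genes were -0.14, -0.15 and -0.01 with all libraries, and 0.00, -0.04 and 0.09 without it. Akap9 shares 166 exon bases with the far more abundant Cyp51 on the opposite strand, so its reads are uncertain. Akap5, a membrane scaffold also called AKAP150 in mouse, had at most 2.24 CPM and a log2 fold change of -0.10 (SE 0.29). Akap6, a scaffold of the nuclear envelope in muscle, had 0.302, 0.741 and 0.872 CPM in PTHrP libraries and 1.08, 0.708 and 1.60 CPM in DsRed libraries, with groups that overlapped, a fitted log2 difference of -0.82 (SE 0.41) and an edgeR adjusted p of 0.606. The 5 other anchoring proteins tested lay between 0.176 and 41.8 CPM, with log2 fold changes from -0.64 to 0.34 and edgeR adjusted p of 0.714 to 0.881.

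The abundant members also varied by library within the PTHrP group. PTHrP replicate 2 was the lowest library for 27 of the 55 members (49.1%), against 22.9% of all genes, and for 16 of the 22 abundant members (72.7%), against 33.3% of all genes that abundant. On the log2 scale its median deviation from the mean of the other 5 libraries was -0.20 over these 22 members, and -0.02 over 6126 abundant genes. The deviation was lower for members with longer exons, with a Spearman correlation of -0.63 across the 22 members and -0.41 across the 6126 genes. These correlations are across genes of 1 library, which share its depth and preparation and are not independent replicates. For many of the named members, the group difference without this library stands beside the gene above.

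**Figure D5:**
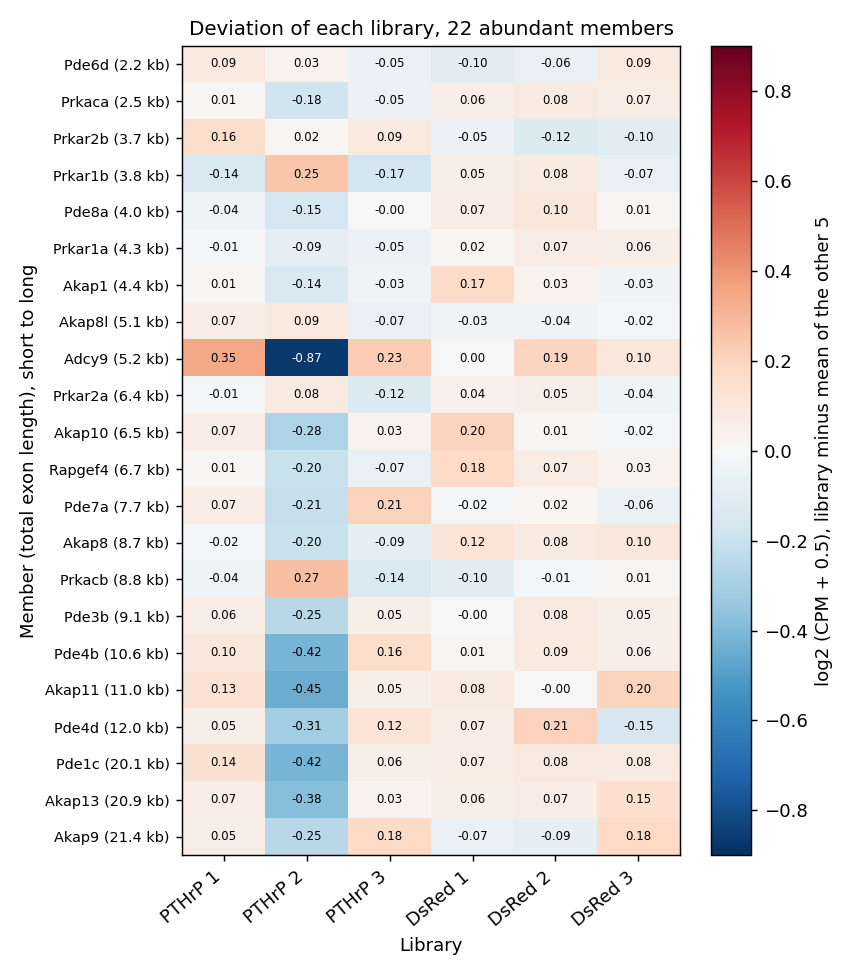
Deviation of each library from the mean of the other 5, on the log2 (CPM + 0.5) scale, for the 22 abundant members (average log2 CPM of 5 or more), ordered from short to long total exon length. PTHrP replicate 2 is low for most members, down to -0.87 for Adcy9, and is above 0.2 for Prkar1b and Prkacb.

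Other genes of the pathway, from lists of 85 genes outside the 57, gave 79 tested genes. By edgeR 0 of the 79 passed an adjusted p of 0.05, against 0.0426% of all genes, and 15 (19.0%) had an unadjusted p under 0.05, against 8.90% of all genes. In 5 of these the log2 fold change was positive and in 10 negative. DESeq2 called 0 of the 71 genes for which it gave an adjusted p, against 0.907% of all genes it adjusted. By limma-voom 0 of 79 were called, against 9 of all 21141 genes. At an unadjusted p under 0.05 DESeq2 counted 11 of the 79, against 8.72% of all genes. For limma-voom it was 13 of the 79, against 9.30% of all genes. Of the cAMP-responsive transcription factors and coactivators, 2 of 10 had an edgeR unadjusted p under 0.05, both with negative fold changes. So did 2 of 5 genes of the cGMP list, 2 of 14 receptors, 2 of 14 other anchoring proteins and 1 of 7 Epac partners, all negative. Of the other cAMP effectors 4 of 10 did, all positive, and of the G protein list 2 of 10, 1 in each direction. The remaining lists had 0. The median log2 fold change of the 79 genes was -0.06, against -0.01 over all genes.

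Upstream of the cyclases, Gnas, which encodes the stimulatory G protein subunit, had 136, 120 and 127 CPM in PTHrP libraries, against 144, 143 and 138 CPM in DsRed libraries. The groups did not overlap, and the log2 fold change was -0.15 (SE 0.06, edgeR adjusted p 0.504). Pth1r, the PTHrP receptor, had 14, 16 and 10 counts in PTHrP libraries and 28, 27 and 13 counts in DsRed libraries, a log2 fold change of -0.76 at under 1 CPM (SE 0.62, edgeR adjusted p 0.771). Glp1r, the receptor for the incretin GLP-1, had 1316, 1225 and 1218 CPM in PTHrP libraries and 1258, 1323 and 1293 CPM in DsRed libraries, a log2 fold change of -0.04 (SE 0.05). Sstr3, a somatostatin receptor coupled to Gi, and Ffar1, the fatty acid receptor GPR40, had log2 fold changes of -0.24 (SE 0.07) and -0.17 (SE 0.06), with groups that did not overlap and edgeR adjusted p of 0.370 and 0.388. The kinase inhibitors Pkia and Pkib had log2 fold changes of -0.03 (SE 0.06) and -0.09 (SE 0.19).

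Downstream, the transcription factors Crem and Creb1, which bind cAMP response elements, had the smallest unadjusted p of the lists. Crem had 123, 129 and 125 CPM in PTHrP libraries, against 163, 167 and 134 CPM in DsRed libraries. Creb1 had 70.6, 61.9 and 71.1 CPM in PTHrP libraries, against 86.7, 81.5 and 78.0 CPM in DsRed libraries. In both, every PTHrP library lay below every DsRed library. The log2 fold changes were -0.30 (SE 0.08, unadjusted p 0.00284, adjusted p 0.326 by edgeR) for Crem and -0.27 (SE 0.07, unadjusted p 0.00324, adjusted p 0.337) for Creb1. Rap1b, a small G protein that Epac activates, had 494, 529 and 506 CPM in PTHrP libraries, against 566, 571 and 568 CPM in DsRed libraries, with a log2 fold change of -0.16, an SE of 0.05 and an edgeR adjusted p of 0.384.

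Hcn4 and Hcn3, which encode pacemaker channels gated by cAMP, lay the other way. Hcn4 had 54.3, 46.3 and 45.6 CPM in PTHrP libraries, against 40.3, 40.8 and 39.8 CPM in DsRed libraries. Hcn3 had 24.1, 25.0 and 22.1 CPM in PTHrP libraries, against 19.6, 20.9 and 18.1 CPM in DsRed libraries. Neither gene had overlapping groups, and the log2 fold changes were 0.27 (SE 0.08) and 0.28 (SE 0.09), with edgeR adjusted p of 0.370 and 0.382. Hcn3 shares 711 exon bases with Pklr on the opposite strand, so its reads are uncertain. Of the cGMP list, Gucy2c, the guanylyl cyclase receptor for guanylin, had 140, 127 and 132 CPM in PTHrP libraries, against 163, 153 and 150 CPM in DsRed libraries. Its groups did not overlap, and the log2 fold change was -0.22 (SE 0.06, edgeR adjusted p 0.343).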

How the data were processed

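The authors deposited raw counts for each gene in each library, with no normalization. They were made with bcl2fastq, STAR, Subread and featureCounts 2.0.3 on GRCm38, per the submitters' processing notes. Which annotation was counted, whether strand was used and how multiply matching reads were handled is not given in the sources used here, and genes that share exon bases are therefore uncertain. The table's 55774 rows held 287 repeats, each with the same counts as its first entry, which were dropped. Every row had a gene ID.

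The titles give each library's group and number. As no label states separate cultures for the replicates, p-values reflect the spread among these libraries alone, which may be technical. Same-numbered libraries of the groups had deviations that correlated at -0.106 to 0.0246. No pairing by number was evident, though so few libraries cannot exclude it.

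Counts were filtered with filterByExpr, scaled with TMM factors and tested across all genes with the quasi-likelihood test of edgeR 4.0.16 (robust, group term alone, two-sided, R 4.3.3), with Benjamini-Hochberg adjustment. SE is the coefficient over the root of its F value. The 95% intervals use the total degrees of freedom of the test, residual plus prior. TPM used union exon lengths of GENCODE M21, and CPM are TMM-scaled. Class totals, shares and motif matches have no test. DESeq2 1.42.0, limma-voom (limma 3.58.1), other filters and factors, a replicate term and each library left out were alternatives. The fitting steps were tested on simulated data with raised levels in the PTHrP group, for 50 genes at each fold. At 1.25-fold 24% were recovered, at 1.5-fold 66%, at 2-fold 88% and at 4-fold 98%. Of 20744 genes tested there, 12 unchanged ones were called. Differences as small as 1.25-fold were thus mostly missed in the simulation. A planned search of protein sequences was not run here.

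The members and lists were chosen with earlier results of these data known. Named are the 12 members with the smallest unadjusted p, up to 4 of highest TPM in each class, a fixed set of beta cell members, the 8 pathway genes with the smallest p, and Gnas, Pkia, Pkib, Creb1, Crem, Pth1r, Glp1r and Pthlh. Other members are given by range. Overlap partners were chosen after their values were seen.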

Additional observations from a re-analysis of the deposited data

How the results depend on the processing

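With 3 libraries in each group, the number of genes called was the least stable value. It was 9 by edgeR, 14 with library sizes alone, 220 with no filter on low counts, 136 by DESeq2, and 2 to 213 when 1 library was left out, the highest without PTHrP replicate 2 and the lowest without DsRed replicate 2. No member was called in any of these except Adcy1, which made the count 1 by DESeq2 and 0 to 1 with a library left out; the 1 was without PTHrP replicate 3. Members at an unadjusted p under 0.05 numbered 9, and 5 to 13 with a library left out, while the share of all genes at that p was 8.90% and 5.16% to 13.0%. The median log2 fold change of members was -0.10, and -0.13 to -0.04 with a library left out. The log2 ratio of summed cyclase TPM was 0.06, and 0.22 for summed CPM, -0.11 without PTHrP replicate 1 and 0.25 without PTHrP replicate 2. That of phosphodiesterase TPM was -0.09, and 0.01 without PTHrP replicate 2.

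The replicate number as a block in edgeR called 7 genes and 0 members, with an adjusted p of 0.185 for Adcy1. No pairing by number was evident. Members at an unadjusted p under 0.05 were then 7 (12.7%), against 7.85% of all genes. Of the pathway genes, Crem had an adjusted p of 0.0191 with no filter on low counts.

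Of 643 single-gene values under the alternatives, 612 kept their direction and their side of the threshold and 28 changed sign, in 16 genes and nearly all when 1 library was left out. With a library left out, the log2 fold change was -0.13 to 0.19 for Adcy3, -0.05 to 0.24 for Adcy6, -0.28 to 0.16 for Adcy9, -0.23 to 0.00 for Akap11, -0.48 to 0.06 for Akap5 and -0.09 to 0.09 for Akap9. It was -0.20 to 0.02 for Pde1c, -0.11 to 0.01 for Pde3b, -0.16 to 0.07 for Pde4b, -0.15 to 0.03 for Pde4d and -0.58 to 0.15 for Pde8b. It was -0.23 to 0.02 for Pkib, -0.04 to 0.13 for Prkacb, -0.15 to 0.03 for Prkar1b, -0.07 to 0.01 for Prkar2a and -0.74 to 0.07 for Rapgef3. Akap9 was at 0.00 with no filter. None of these genes passed the threshold by edgeR with all libraries, and the cause was not tested.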

Other observations

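The 6 other tested genes within 500 kb of Adcy1 on chromosome 11 were looked at after the values of Adcy1 were seen. Ramp3, which encodes a partner protein of receptors of the calcitonin family, had 13.6, 13.1 and 12.3 CPM in PTHrP libraries, against 10.1, 10.5 and 10.2 CPM in DsRed libraries. The groups did not overlap, and the log2 fold change was 0.34 (SE 0.10, unadjusted p 0.00440, adjusted p 0.352 by edgeR). Of the other neighbours, Ccm2, Tbrg4, Igfbp3 and Nacad had log2 fold changes of 0.08, 0.03, -0.09 and -0.04, and Gm11977, at under 1 CPM, had 0.42 (SE 0.34).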
